A study of Mus musculus with 46 samples.

Results

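Genes for albumin and 9 other plasma carrier proteins were followed across normal mouse liver and Myc-driven liver tumours: Alb, Ttr, Trf, Azgp1, Ahsg, Fetub, Gc, Ambp, Rbp4 and Hpx. The 10 genes were taken by symbol from a table of 21671 genes, all 10 were found, and all 10 passed the filter on low values. RNA depleted of ribosomal RNA was sequenced from 46 liver and tumour samples of FVB mice. The comparisons ask how liver tumours that depend on Myc differ from liver, and what the loss of Myc or an altered Myc changes in them.

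Control liver, labelled as normal liver with no further genotype given, made up 11 libraries, each with its own animal ID. Myc tumours (16 libraries, 7 IDs) carried the tet-Myc transgene with wild-type Myc, which the liver-specific transactivator LAP-tTA had switched on before birth. Myc-off tumours, 8 libraries from 3 IDs, came from the same kind of mouse after 16 hours of food with doxycycline, which shuts the transgene down. MycVD tumours, 11 libraries from 10 IDs, carried tet-Myc with the V394D substitution, a change known to weaken how Myc binds its partner Miz1. Up to 4 tumours shared an ID, which was taken as the animal. That is an assumption, and p-values measure the spread between such IDs. In bulk tissue, fewer hepatocytes and less RNA per hepatocyte cannot be told apart. Ages of the mice are not stated in the labels.

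Hepatocytes secrete most of the protein in blood plasma. Albumin is the most abundant of these proteins and carries fatty acids, hormones and drugs. The others are narrower in what they bind: transferrin takes iron, hemopexin takes free haem, retinol-binding protein takes vitamin A and travels bound to transthyretin, and the vitamin D-binding protein takes vitamin D. Fetuins bind mineral or inhibit proteases, and zinc-alpha-2-glycoprotein is a lipid-mobilising protein. Their genes are used as markers of the hepatocyte, and alpha-fetoprotein, a close relative of albumin, is the fetal form.

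The start regions of the albumin gene family are shown because Alb, Gc, Afp and Afm descend from 1 ancestral gene and could be set side by side. They were read from the RefSeq promoter table of GRCm38.p6, 150 bases up to the base before the gene start, 5′ to 3′ on the gene's strand. The capitals mark GTTAATNAT, letters chosen for the search from what is known of liver promoters. Alb lies at chr5:90460720-90460869 on the plus strand, Gc at chr5:89457899-89458048 on the minus strand, Afp at chr5:90490564-90490713 on the plus strand and Afm at chr5:90518799-90518948 on the plus strand.
Alb: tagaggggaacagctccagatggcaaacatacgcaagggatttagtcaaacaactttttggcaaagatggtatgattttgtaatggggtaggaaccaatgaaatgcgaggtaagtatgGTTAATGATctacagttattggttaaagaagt
Gc: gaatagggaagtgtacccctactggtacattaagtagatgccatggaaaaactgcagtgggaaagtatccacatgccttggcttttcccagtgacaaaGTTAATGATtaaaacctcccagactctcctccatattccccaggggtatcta
Afp: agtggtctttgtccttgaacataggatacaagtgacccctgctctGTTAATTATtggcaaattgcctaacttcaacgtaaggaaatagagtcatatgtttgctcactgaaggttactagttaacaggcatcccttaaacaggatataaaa
Afm: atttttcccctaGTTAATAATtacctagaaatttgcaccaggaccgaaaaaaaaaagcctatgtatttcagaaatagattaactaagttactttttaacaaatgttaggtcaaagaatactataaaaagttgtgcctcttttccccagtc
Counted back from the gene start, the match begins at base -32 in Alb, -52 in Gc, -105 in Afp and -138 in Afm. Searched on both strands over the 250 bases before the start, these letters were in 242 of 32851 windows of the table (0.737%) and in the windows of 4 of 4 albumin family genes. Of the 10 carrier protein genes 8 had a window (all but Ttr and Trf), and 2 of these 8, Alb and Gc, held the letters.

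Azgp1 and Fetub are shown because their values moved furthest between the groups. Their windows, in the same table and with the same length, lie at chr5:137981371-137981520 and chr16:22918232-22918381, both on the plus strand, with the first of the starts listed for Fetub.
Azgp1: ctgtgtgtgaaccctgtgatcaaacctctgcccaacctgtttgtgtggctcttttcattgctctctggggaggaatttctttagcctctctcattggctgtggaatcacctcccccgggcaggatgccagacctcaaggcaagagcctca
Fetub: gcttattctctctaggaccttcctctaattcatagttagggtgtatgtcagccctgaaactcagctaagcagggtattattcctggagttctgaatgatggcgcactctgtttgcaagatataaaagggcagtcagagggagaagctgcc
Neither window held GTTAATNAT, so nothing is in capitals. CACGTG, the E-box known for Myc and Max, was in 6.02% of all windows and in 0 of the 8 genes' windows. CAAAGTCCA, a site known for the factor HNF4, was in 0.384% and also in 0 of the 8. These are matches of letters in a window, and no binding was measured.

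Levels are exonic RPKM (eRPKM), that is reads per kb of exon scaled to library depth. Which reads the authors' denominator counts is not stated, so depth here means the total that the values imply. The values are whole multiples of 1 read, which gave depths of 5.63 to 8.95 M reads in control libraries (median 7.32), 7.27 to 12.6 in Myc tumours (median 9.65), 3.25 to 10.4 in Myc-off tumours (median 7.14) and 6.18 to 10.6 in MycVD tumours (median 7.81). In 8 libraries (1 control, 5 Myc, 2 MycVD) Gapdh, a glycolysis gene, was under 30 eRPKM, apart from the rest. Myc-off IDs are numbered above those of every other group and MycVD IDs above Myc IDs, so that these groups and any batch of that order cannot be told apart. Hepatocyte markers were present in all 46 libraries. The sum of 12 of them had a median of 2179 eRPKM in control liver, 713 in Myc, 1086 in Myc-off and 814 in MycVD tumours.

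Sizes have to be read against a ceiling. In reads per kb, before division by depth, 8 of the 10 genes (all but Azgp1 and Fetub) lay between 391 (Ttr in a Myc tumour) and 2182 (Alb in control ID125322) over the 46 libraries, where the highest value of any gene over 500 bp was 1461 to 2182 per library. How near a gene came to that ceiling differed: Ttr had a median of 494 in Myc libraries, and Alb ran there from 561 to 1674. The elongation factor gene Eef1a1, for example, stayed between 1364 and 1703 reads per kb although depth varied. Alb had a median of 1380 reads per kb in control liver, 933 in Myc, 1358 in Myc-off and 984 in MycVD tumours. Ambp had 1087, 1061, 1106 and 1064 in the same order. Reads per kb are not scaled to depth and the Myc libraries were deeper, so like values here do not mean like levels. Azgp1 went from 1250 in control liver to 30.8, 123 and 60.9, and Fetub from 670 to 41.1, 160 and 90.5. These wide steps were visible on either scale.

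**Figure D1:**
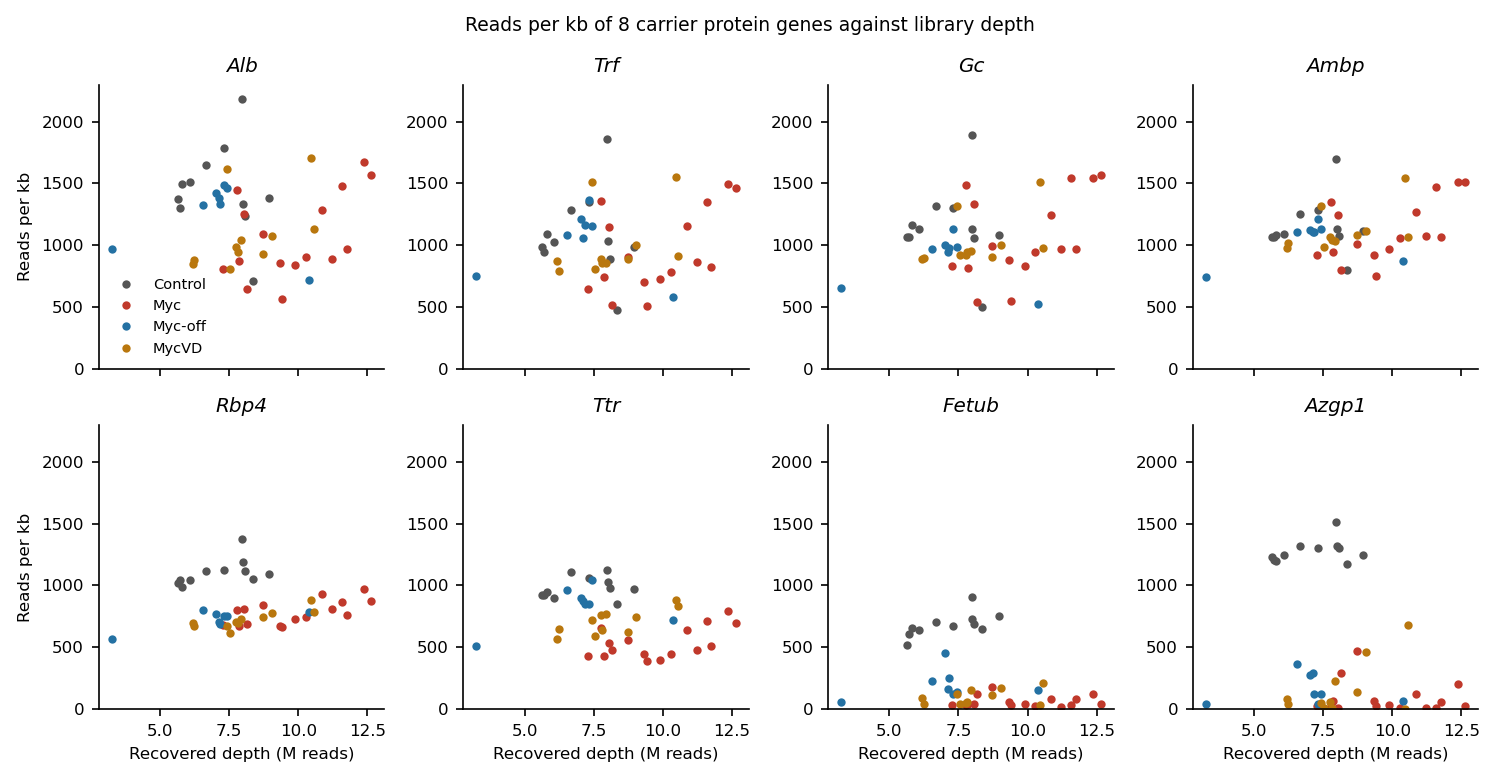
Reads per kb (vertical axis, linear) of 8 carrier protein genes against the recovered depth of the library in M reads (horizontal axis), 1 point per library and 1 colour per group. Alb, Trf, Gc and Ambp of tumour and control libraries overlap, while the tumour libraries of Fetub and Azgp1 lie far under the control libraries.

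Azgp1 and Fetub stood at 4.54% and 6.19% of the control mean eRPKM in Myc tumours, and the other 8 genes at 36.7% (Ttr) to 65.5% (Ambp). Values under the ceiling enter these percentages, also those of Azgp1 in control liver, so they are not shares of RNA kept. All 10 genes were lower in Myc tumours than in control liver by limma, where 29.7% of the 14566 genes tested were lower and 50.4% were higher. For 6 of them the ID means of the groups did not overlap, where 18.7% of all genes were lower without overlap. The median log2 fold change of the 10 was -1.09, beside 0.28 for all genes. The calls of Trf, Gc and Ambp were lost with library depth as a term in the fit, with quantile normalisation and with reads per kb in place of eRPKM, where the median of all genes was 0.77.

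After 16 hours without the transgene, 8 of the 10 genes were higher than in Myc tumours and 0 were lower. Of all genes 22.8% were higher and 28% were lower. The ID means of these 8 did not overlap with those of Myc tumours, where 19.6% of all genes were higher without overlap. Azgp1 and Gc did not pass. The median of the 10 was 1.02, beside 0.00 for all genes. With depth as a term, 4 of the 8 calls remained, those of Ttr, Ahsg, Fetub and Hpx, where 3440 of all 14566 genes were higher.

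In MycVD tumours 5 of the 10 genes (Ttr, Ahsg, Fetub, Ambp and Hpx) were higher than in Myc tumours and 0 were lower, where 6.14% of all genes were higher and 9.69% were lower. The ID means of Ttr alone did not overlap, as for 0.783% of all genes in that direction. The median of the 10 was 0.48, beside -0.05 for all genes. The count was 1, Ttr, with depth as a term, where 588 of 14566 genes were higher, and 8 without the libraries with low Gapdh, where 1591 of 14536 were. It was also 1 with reads per kb, a scale on which all genes shifted (median -0.38, 260 of 14704 genes higher).

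Against control liver, 7 of the 10 genes were lower in MycVD tumours (all but Trf, Gc and Ambp), where 31.1% of all genes were lower. The ID means of Azgp1, Fetub and Rbp4 did not overlap, as for 14.7% of all genes. In Myc-off tumours these 3 genes were lower than in control liver, where 20.9% of all genes were, and they did not overlap either, as for 13.7% of all genes. The other 7 stood between -0.20 (Gc) and 0.13 (Trf) on the log2 scale in Myc-off tumours against control liver, and did not pass. The comparisons share control livers or Myc tumours, so they are not independent of each other.

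**Figure D2:**
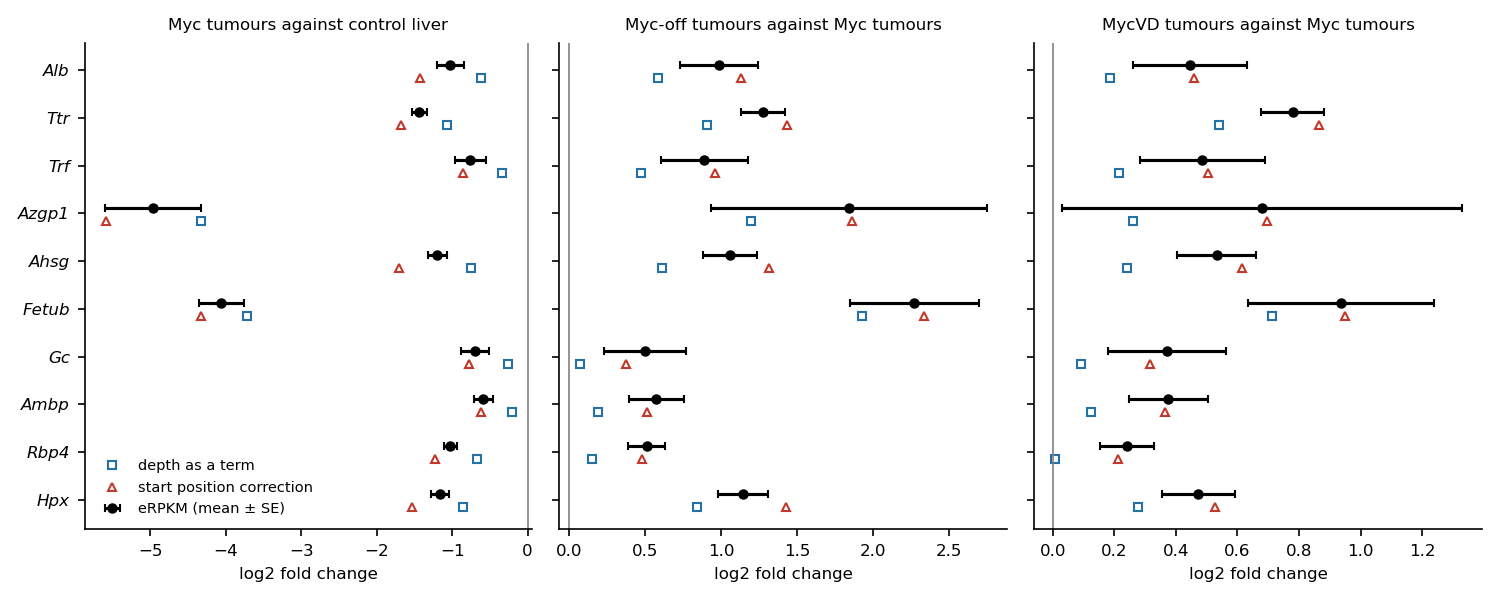
Log2 fold change (horizontal axis, a different range in each panel) of the 10 genes in 3 comparisons: black points are limma estimates with their SE, squares the estimates with depth as a term, triangles those with reads per kb corrected for an assumed limit of 2000, which Alb of control ID125322 exceeded. The depth term brings the estimates of both tumour comparisons nearer to 0 and brings Rbp4 in MycVD tumours almost to 0.

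Albumin, the main carrier of plasma, ran from 85.3 to 273 eRPKM in control liver (median 243), 59.6 to 186 in Myc tumours (median 111), 69.4 to 297 in Myc-off tumours (median 200) and 106 to 217 in MycVD tumours (median 127). The tumour libraries overlapped with the control libraries, of which ID128988 was the lowest. The mean over IDs was 209 ± 59.5 (SD, n = 11) in control liver and 101 ± 26.02 (n = 7) in Myc tumours, giving a log2 fold change of -1.02 with an SE of 0.18 (adjusted p = 7.4e-06). Errors of log2 fold changes are SEs throughout. It was 194 ± 4.06 (n = 3) in Myc-off tumours, 0.99 ± 0.26 above Myc tumours (adjusted p = 2.1e-03), and this call was lost with depth as a term (0.58). That SD is of ID means, and the libraries of Myc-off ID150584 alone ran from 69.4 to 297 eRPKM. In MycVD tumours the mean over IDs was 136 ± 33.3 (n = 10), and the difference of 0.45 ± 0.19 from Myc tumours did not pass (adjusted p = 0.099). In the 5 Myc libraries with low Gapdh Alb lay at 124 to 186 eRPKM, and in the other 11 at 59.6 to 126. Without the low-Gapdh libraries of all groups, Alb passed in MycVD against Myc tumours, at 0.46.

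Gc, which encodes the vitamin D-binding protein, ran from 59.9 to 237 eRPKM in control liver (median 187), 58.5 to 191 in Myc tumours (median 109), 50.9 to 201 in Myc-off tumours (median 140) and 92.4 to 177 in MycVD tumours (median 121). All 4 groups overlapped. It was lower in Myc tumours by limma, at -0.69 ± 0.19 (adjusted p = 1.3e-03), but stood at -0.27 with depth as a term and at -0.15 with quantile normalisation, where the call was lost. It was 0.50 ± 0.27 above Myc tumours in Myc-off tumours (adjusted p = 0.123) and 0.37 ± 0.19 in MycVD tumours (adjusted p = 0.184). Cyp2r1, the gene of the hepatic vitamin D 25-hydroxylase, averaged 25.6 ± 5.81 eRPKM in control liver and 0.57 ± 0.32 in Myc tumours (log2 fold change -4.62 ± 0.24). It stood at 0.80 ± 0.35 in Myc-off and 0.94 ± 0.79 in MycVD tumours, and neither difference from Myc tumours passed.

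Afp, the fetal relative of Alb, lay at 8.11 to 19.1 eRPKM in control liver (median 12.5) and at 53.9 to 181 in Myc tumours (median 106), with no overlap. It exceeded control liver by 2.86 ± 0.15 on the log2 scale (adjusted p = 5.9e-17), and was higher still in Myc-off (0.98 ± 0.22 over Myc tumours) and MycVD tumours (0.49 ± 0.16). These values of Afp were not recomputed with depth as a term. Within Myc-off ID150584 alone Afp ran from 68.7 to 289 eRPKM. Afm, the gene of the vitamin E carrier afamin, went the other way in Myc tumours, at -1.30 ± 0.10, and was 0.95 ± 0.14 higher in Myc-off than in Myc tumours. In MycVD tumours it stood at -0.15 ± 0.10 against Myc tumours, which did not pass.

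Afp and Alb reached almost equal levels in tumours. The log2 ratio of Afp to Alb averaged -3.94 ± 0.65 (SD, n = 11) in control liver and -0.05 ± 0.09 (n = 7) in Myc tumours, a difference of 3.89. The exact permutation test gave p = 6.3e-05 (two-sided, adjusted p = 1.9e-04 over 3 comparisons), the smallest it can give here. The ratio was -0.06 ± 0.04 (n = 3) in Myc-off tumours and -0.01 ± 0.11 (n = 10) in MycVD tumours. Neither difference from Myc tumours passed (differences of -0.01 and 0.04, exact permutation adjusted p = 0.833 and 0.588). Over 3 other settings the difference between Myc tumours and control liver ran from 3.77 to 4.80. In Myc libraries Alb lay at 561 to 1674 reads per kb and Afp at 507 to 1591. The part of the ceiling in their near equality was not tested.

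Within each Myc tumour library Alb, Afp, Gc, Trf and Ambp stood close to one another. The ratio to Alb was 0.828 to 1.03 for Afp, 0.840 to 1.09 for Gc, 0.795 to 0.976 for Trf and 0.905 to 1.33 for Ambp over the 16 libraries, while Alb itself varied 3.12-fold. Ranked over these libraries, Alb went with Gc (Spearman's rho 0.97), Afp (0.96), Trf (0.94) and Ambp (0.91), and rho with depth was -0.11. The 16 points come from 7 IDs and each pair of values shares a library and its depth, so these are descriptions. In the 5 Myc libraries with low Gapdh, Trf lay at 115 to 175 eRPKM and Gc at 124 to 191. In the other 11 Trf lay at 53.6 to 106 and Gc at 58.5 to 115. Ambp lay at 119 to 174 with low Gapdh and at 79.5 to 126 in the others, with overlap. The part of this split in the ranks was not tested. In control liver the ratio of Gc to Alb was 0.702 to 0.866 and that of Trf 0.664 to 0.853, and rho with Alb was 0.89 and 0.92. In MycVD libraries the ratio was 0.851 to 1.21 for Afp, 0.816 to 1.14 for Gc, 0.811 to 1.02 for Trf and 0.817 to 1.22 for Ambp. In Myc-off libraries it was 0.920 to 1.00, 0.670 to 0.759, 0.767 to 0.919 and 0.772 to 1.21 in the same order.

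**Figure D3:**
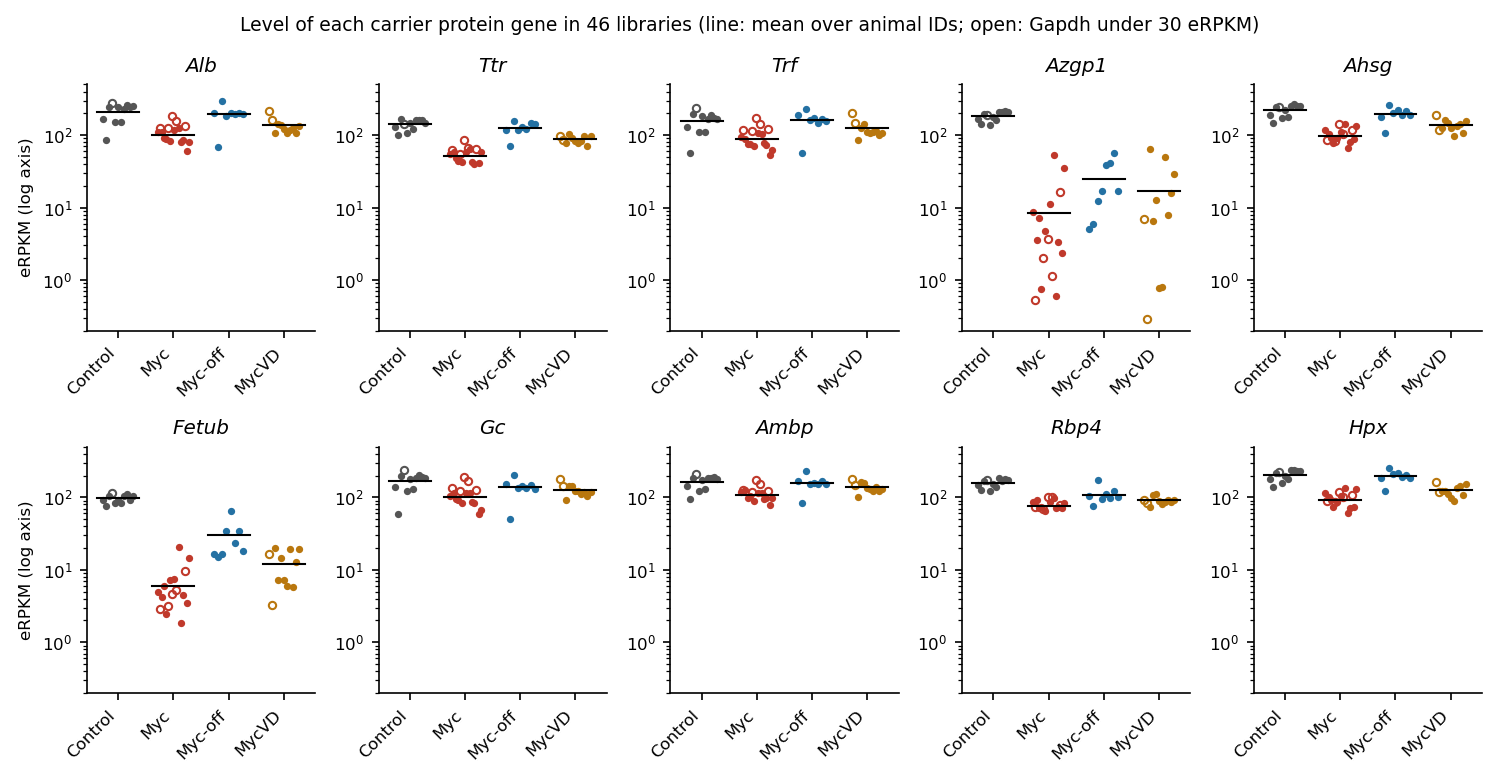
Exonic RPKM (vertical axis, log scale) of each of the 10 genes in 46 libraries of the 4 groups. Points are libraries, open points those with Gapdh under 30 eRPKM, and lines the mean over IDs. All tumour libraries of Azgp1 and Fetub lie under the control libraries and scatter widely, Fetub of Myc-off tumours coming nearest at 65.1 against a lowest control of 77.2, while the other 8 genes stay within one decade of their control level.

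Trf, which encodes the iron carrier transferrin, ran from 56.7 to 233 eRPKM in control liver (median 169), 53.6 to 175 in Myc tumours (median 91.7), 56.1 to 231 in Myc-off tumours (median 164) and 86.8 to 203 in MycVD tumours (median 110.5). All groups overlapped. It was lower in Myc tumours, at -0.76 ± 0.20 (adjusted p = 1.0e-03), but at -0.34 with depth as a term, where the call was lost. In Myc-off tumours it was 0.89 ± 0.29 above Myc tumours (adjusted p = 9.9e-03), again not with depth as a term (0.47). In MycVD tumours it stood at 0.49 ± 0.20 (adjusted p = 0.101). Tfrc, the gene of the receptor that takes up iron-loaded transferrin, moved the opposite way in Myc tumours against control liver. Tfrc averaged 20.0 ± 9.28 eRPKM in control liver, 81.5 ± 8.63 in Myc, 77.5 ± 13.5 in Myc-off and 86.04 ± 10.2 in MycVD tumours. Its log2 fold change was 2.12 ± 0.18 in Myc tumours against control liver (adjusted p = 4.2e-12) and stood at -0.08 ± 0.26 after the switch-off (adjusted p = 0.829).

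Hpx, the haem scavenger hemopexin, ran from 140 to 237 eRPKM in control liver (median 220.5), 61.8 to 137 in Myc tumours (median 95.6), 123 to 257 in Myc-off tumours (median 196) and 88.8 to 164 in MycVD tumours (median 122). No Myc tumour library reached the lowest control library. The log2 fold change was -1.16 ± 0.12 in Myc tumours against control liver (adjusted p = 1.4e-10). Hpx was higher in Myc-off than in Myc tumours by 1.14 ± 0.17 (adjusted p = 9.7e-07) and higher in MycVD tumours by 0.47 ± 0.12 (adjusted p = 6.6e-03). The last call was lost with depth as a term (0.28). Against control liver it stood at -0.02 ± 0.16 in Myc-off tumours. Hp, the haemoglobin scavenger haptoglobin, spread far more widely, from 4.49 to 120 eRPKM in Myc tumours against 147 to 235 in control liver, with no overlap.

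Rbp4, the plasma carrier of vitamin A, ran from 122 to 183 eRPKM in control liver (median 168), 65.0 to 103 in Myc tumours (median 76.6), 75.6 to 174 in Myc-off tumours (median 102) and 74.5 to 112 in MycVD tumours (median 88.95). It had the narrowest range among the 10 genes in Myc libraries, 1.58-fold, and no Myc or MycVD library reached the control libraries. The log2 fold change was -1.02 ± 0.09 in Myc tumours (adjusted p = 3.0e-12), -0.78 ± 0.08 in MycVD tumours (adjusted p = 1.3e-10) and -0.52 ± 0.12 in Myc-off tumours (adjusted p = 3.6e-04), each against control liver. Its rise of 0.51 ± 0.12 over Myc tumours (adjusted p = 9.1e-04) was lost with depth as a term (0.15) and stood at -0.10 in reads per kb. Stra6, the receptor for Rbp4, was at most 0.137 eRPKM in any library.

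Ttr, the gene of transthyretin, which carries thyroxine and holds the vitamin A carrier in the blood, ran from 102 to 166 eRPKM in control liver (median 145), 40.1 to 84.4 in Myc tumours (median 56.7), 69.7 to 157 in Myc-off tumours (median 125) and 71.0 to 104 in MycVD tumours (median 84.4). No Myc library reached the control libraries. It fell by 1.44 ± 0.10 on the log2 scale in Myc tumours (adjusted p = 3.5e-14). It was higher than in Myc tumours by 1.28 ± 0.14 in Myc-off tumours (adjusted p = 1.1e-08) and by 0.78 ± 0.10 in MycVD tumours (adjusted p = 4.3e-06). Both calls held with depth as a term (0.91 and 0.54) and in reads per kb. Serpina7, the gene of thyroxine-binding globulin, averaged 19.7 ± 9.80 eRPKM in control liver, 7.80 ± 1.11 in Myc, 24.4 ± 4.44 in Myc-off and 8.47 ± 8.42 in MycVD tumours.

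Ambp encodes alpha-1-microglobulin, a small lipocalin, together with bikunin, the light chain of the inter-alpha-inhibitors. It ran from 96.02 to 213 eRPKM in control liver (median 179), 79.5 to 174 in Myc tumours (median 116), 83.7 to 230 in Myc-off tumours (median 158) and 101 to 178 in MycVD tumours (median 134). All groups overlapped. Its change in Myc tumours was the smallest of the 10, at -0.59 ± 0.13 (adjusted p = 9.6e-05), and it stood at -0.21 with depth as a term and at -0.06 in reads per kb, where it did not pass. It was 0.57 ± 0.18 above Myc tumours in Myc-off tumours (adjusted p = 8.8e-03) and 0.38 ± 0.13 in MycVD tumours (adjusted p = 0.045), and neither call held with depth as a term (0.19 and 0.12). Itih4, the gene of a related heavy chain, changed more: 177 ± 28.9 eRPKM in control liver, 49.7 ± 10.05 in Myc, 144 ± 3.75 in Myc-off and 88.6 ± 25.5 in MycVD tumours.

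The fetuin genes Ahsg and Fetub are related and neighbour each other on the chromosome, beside Hrg and the kininogen genes. Ahsg, whose product fetuin-A keeps calcium phosphate in solution, ran from 149 to 272 eRPKM in control liver (median 243), 66.9 to 144 in Myc tumours (median 96.5), 106 to 261 in Myc-off tumours (median 196) and 97.4 to 188 in MycVD tumours (median 132). Every Myc library lay under every control library. It was lower in Myc tumours at -1.20 ± 0.13 (adjusted p = 3.5e-10), higher in Myc-off than in Myc tumours by 1.06 ± 0.18 (adjusted p = 1.0e-05) and higher in MycVD tumours by 0.53 ± 0.13 (adjusted p = 4.7e-03). The last call was lost with depth as a term (0.24).

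Fetub, whose product fetuin-B inhibits the egg-coat protease ovastacin, ran from 77.2 to 114 eRPKM in control liver (median 91.95), 1.82 to 20.5 in Myc tumours (median 4.79), 14.98 to 65.1 in Myc-off tumours (median 20.8) and 3.25 to 20.0 in MycVD tumours (median 13.01). No tumour library of any group reached the control libraries. The log2 fold change against control liver was -4.06 ± 0.30 in Myc (adjusted p = 9.5e-14), -3.13 ± 0.27 in MycVD (adjusted p = 4.2e-12) and -1.79 ± 0.40 in Myc-off tumours (adjusted p = 3.1e-04). It was 2.27 ± 0.42 higher in Myc-off than in Myc tumours (adjusted p = 4.2e-05), a call that held in all settings tried. It was 0.94 ± 0.30 higher in MycVD tumours (adjusted p = 0.033), but at 0.71 and not called with depth as a term. Hrg, the neighbouring gene of histidine-rich glycoprotein, was at 159 ± 20.3 eRPKM in control liver, 5.40 ± 4.86 in Myc, 43.2 ± 41.6 in Myc-off and 17.8 ± 14.2 in MycVD tumours.

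Azgp1, the gene of zinc-alpha-2-glycoprotein, ran from 139 to 218 eRPKM in control liver (median 190), 0.525 to 53.5 in Myc tumours (median 3.64), 5.10 to 56.2 in Myc-off tumours (median 16.8) and 0.291 to 64.1 in MycVD tumours (median 7.84). No tumour library reached the control libraries, and among tumours the range was 102-fold in Myc and 220-fold in MycVD libraries, against 1.56-fold in control liver. The lowest MycVD library held 4 Azgp1 reads. The log2 fold change against control liver was -4.97 ± 0.64 in Myc (adjusted p = 2.5e-08), -4.29 ± 0.58 in MycVD (adjusted p = 6.0e-08) and -3.13 ± 0.86 in Myc-off tumours (adjusted p = 2.5e-03). The last value rests on 3 IDs and was -2.46 without Myc-off ID150584 (adjusted p = 0.041). The difference of 1.84 ± 0.91 between Myc-off and Myc tumours did not pass (adjusted p = 0.093). It passed with every tumour as its own sample (1.87), with array weights (2.54) and without Myc-off ID150584 (2.51). In MycVD against Myc tumours it stood at 0.68 ± 0.65 (adjusted p = 0.509).

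Tumours of the same animal ID differed in Azgp1. Of the 9 IDs with more than 1 tumour, the ratio of the highest to the lowest tumour had a median of 5.01 for Azgp1, 4.30 for Hp and 2.09 for Fetub, and of 1.39 for Alb. In MycVD ID133765, tumour A had 0.808 eRPKM of Azgp1 and tumour B 50.7, while Alb was at 107 and 119. In Myc ID125324, tumours A to D had 3.72, 11.4, 1.13 and 53.5 eRPKM of Azgp1, and 186, 118, 155 and 126 of Alb. In Myc ID126948, tumour A had 2.34 and tumour C 35.5. The reverse was seen in Myc-off ID150584. Alb ran there from 69.4 to 297 eRPKM, a 4.29-fold range, and Azgp1 from 5.10 to 12.2, a 2.39-fold range. The lowest Alb value came from tumour B, the deepest Myc-off library (10.4 M reads), and the highest from tumour C, the shallowest (3.25 M). The part of depth in this range was not tested. Tumours high and low in Azgp1 thus occurred under the same ID.

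Among tumours Azgp1 ranked with Hp and Fetub rather than with Alb. Over the 16 Myc libraries Spearman's rho of Azgp1 was 0.95 with Hp, 0.91 with Fetub and 0.08 with Alb. Over the 8 Myc-off libraries it was 0.79, 0.79 and -0.10, and over the 11 MycVD libraries 0.87, 0.82 and -0.39. Ahsg and Hpx also ranked with Azgp1 in Myc libraries (0.79 and 0.76), but less in Myc-off (0.50 and 0.43) and MycVD libraries (0.13 and 0.44). Tumours of an ID and genes of a library are not independent, so no test was made. Azgp1 had a rho of 0.50 with the hepatocyte marker sum in Myc libraries, Fetub 0.57, and Ttr and Hpx 0.89 each. The part of hepatocyte content in the spread of Azgp1 was not tested. In control liver Azgp1 followed depth, with a rho of -0.99 over 11 libraries, as did Hpx (-0.90) and Rbp4 (-0.89).

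**Figure D4:**
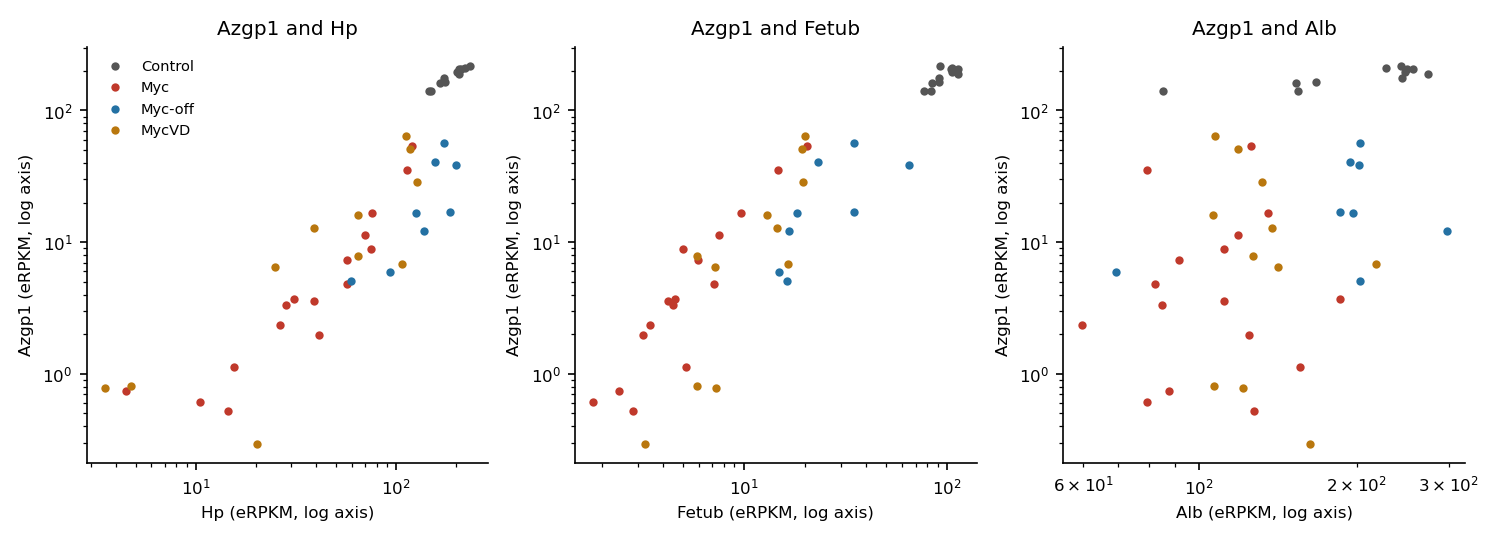
Azgp1 (vertical axis, eRPKM, log scale) against Hp, Fetub and Alb (horizontal axes, eRPKM, log scale) in 46 libraries, 1 point per library and 1 colour per group. Among tumours Azgp1 runs along Hp and Fetub over about the whole range from 0.291 to 64.1, while tumours of like Alb hold both high and low values.

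Over all 31 IDs the 10 genes did not resemble one another to the same degree. The rho of each gene with the mean of the other 9 was highest for Ahsg (0.96), Ttr (0.95) and Hpx (0.95) and lowest for Azgp1 (0.72). Among 10706 genes that averaged at least 5 eRPKM and were no members, those most like the mean of the 10 included the fibrinogen gene Fgg (rho 0.97), the cytochrome gene Cyb5a (0.97), the antithrombin gene Serpinc1 (0.97) and the sterol carrier gene Scp2 (0.96). These ranks run across the 4 groups and follow their differences.

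Other secreted hepatocyte proteins moved in the same direction. Of 52 further plasma protein genes, 52 were lower in Myc tumours than in control liver (median -1.43), where 29.7% of all genes were. In Myc-off against Myc tumours 48 were higher and 0 lower (median 1.06), where 22.8% of all genes were higher. In MycVD against Myc tumours 30 were higher and 0 lower (median 0.40), where 6.14% of all genes were higher. Against control liver 20 of the 52 were lower in Myc-off tumours, where 20.9% of all genes were. The fetuin relatives Hrg, Kng1 and Kng2 were lower in Myc tumours in 3 of 3 and higher again in Myc-off tumours in 3 of 3. Hrg and Kng1 are also among the 52. These lists were chosen with earlier results of the data known, and their counts were not recomputed with depth as a term.

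Genes around each carrier were mixed in Myc tumours against control liver, where 29.7% of all genes were lower and 50.4% higher. Of 12 iron and haem genes tested 3 were higher and 8 lower in Myc tumours, from the iron hormone gene Hamp at -3.06 to Tfrc. Of 9 genes of retinol and thyroid hormone transport 1 was higher and 7 lower, from Dio1, an enzyme that activates thyroid hormone, at -7.16 to Rbp2, an intestinal retinol carrier, at 4.90. Of 5 vitamin D genes 3 were higher and 2 lower, from Cyp2r1 to the endocytic receptor gene Lrp2 at 3.34. Of 5 further genes listed with bikunin and the inter-alpha-inhibitors 4 were lower and 1, Itih5, was higher, at 3.31. Itih1, Itih2, Itih3 and Itih4 of that list are also among the further plasma protein genes counted above.

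The secretory machinery and the regulators of these genes were measured in the same libraries. Among all genes 29.7% were lower and 50.4% higher in Myc tumours against control liver. In Myc-off against Myc tumours 22.8% of all genes were higher and 28% lower. Of 31 secretory pathway genes tested 22 were lower and 2 higher in Myc tumours (median -0.26), and 25 were higher and 1 lower in Myc-off against Myc tumours. Of 21 hepatocyte transcription factor genes 19 were lower and 1 higher in Myc tumours (median -1.04), and 12 were higher and 1 lower after the switch-off. Cebpa stood at -1.31 ± 0.09 and Hnf4a at -0.73 ± 0.07 in Myc tumours, and at 0.59 ± 0.13 and 0.65 ± 0.10 in Myc-off against Myc tumours.

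Markers of most cell types moved with the groups too. The counts stand beside 29.7% of all genes lower and 50.4% higher in Myc tumours against control liver. For Myc-off against Myc tumours the shares were 22.8% higher and 28% lower. The 12 hepatocyte markers were lower in Myc tumours in 12 of 12 and higher in Myc-off against Myc tumours in 7 of 12, and their sum ran from 1420 to 2375 eRPKM in control, 537 to 940 in Myc, 644 to 1556 in Myc-off and 630 to 924 in MycVD libraries. The sum of 10 endothelial markers was 205 to 364 in control and 63.4 to 134 in Myc libraries, and that of 5 neutrophil markers 7.79 to 22.1 and 32.4 to 238. The 7 erythroid markers were higher in Myc tumours in 7 of 7 (median sum 48.8 in control and 153 in Myc libraries). The lymphocyte sum was 6.27 to 13.4 in control and 13.9 to 26.8 in Myc libraries, and the stellate and fibroblast sum had medians of 204 and 118. Of 8 stellate and fibroblast markers 2 were higher and 4 lower in Myc tumours, from Lrat at -3.84 to Col1a1 at 2.66. Of 10 endothelial markers 8 were lower and 0 higher. The Kupffer cell and macrophage sum differed little, with medians of 196 in control, 174 in Myc, 179 in Myc-off and 186 in MycVD libraries. Of its 7 markers 2 were higher and 2 lower in Myc tumours. Cholangiocyte markers were highest in Myc-off libraries, at 67.0 to 222 against 35.7 to 84.6 in Myc libraries. In Myc tumours against control liver 5 of the 7 cholangiocyte markers tested were not called. No marker of these lists was under 0.1 in every library of a group except Cftr in control liver. The part of these shifts in the carrier protein values was not tested.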

How the data were processed

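RNA from 46 samples was sequenced after removal of ribosomal RNA, with a kit that does not mark strand. The values are exonic RPKM (eRPKM) as deposited by the authors. Per the submitters' processing notes, TopHat, TopHat2 2.0.8 and mm9 were used. The counter, the annotation and the handling of duplicates were not given in the sources used here. Whole-read steps (100.0% whole within a tolerance of 0.001) gave gene lengths and depth. eRPKM of tumours sharing an ID were averaged. The 14566 genes reaching 1 eRPKM in 3 or more IDs entered limma 3.58.1 (R 4.3.3) on log2(eRPKM + 0.5), all 4 groups in 1 fit, two-sided, Benjamini-Hochberg adjusted over all genes at 0.05. Fold changes are on this scale, which understates low genes. As an alternative, reads per kb were corrected for start positions used more than once, with an assumed limit of 2000 per kb, values at or above that limit being set to its highest finite value. The ratio test used scipy 1.17.1. The fit was tested on simulated data. The members and lists were chosen with earlier results of these data known. Named are all members, 1 or 2 partner genes of each, and the 5 genes most like their mean; some of these are not reported here. Antisense overlap cannot be told apart.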

Additional observations from a re-analysis of the deposited data

Results flagged for a closer look

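Values over 4 to 10 IDs were checked for a sample far from the others, in 20 sets of values, of which chance marks about 1 in 20. In MycVD tumours, Alb of ID133074 (217 eRPKM) stood apart from the next ID (163), and so did Trf of the same ID (203, next 148). That library had Gapdh under 30 eRPKM. Azgp1 of MycVD ID134660 was at 64.1 eRPKM, with the next ID at 28.6.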

How the results depend on the processing

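Of 1010 single-gene values recomputed under alternatives, 932 kept their direction and their side of the threshold, 31 lost their call, 17 gained one and 30 changed sign. Sign changes were in values that were small or lost their call, and the cause was not tested.

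With depth as a term the count of genes higher was 4 in Myc-off and 1 in MycVD against Myc tumours. Reads per kb, added after the data were seen, gave 4 and 1 too, on a scale where all genes shifted (medians -0.48 and -0.38), with Gc at -0.14, Ambp at -0.048 and Rbp4 at -0.10 in Myc-off and Rbp4 at -0.10 in MycVD tumours. Without libraries with low Gapdh, 8 were higher in MycVD tumours. In Myc-off tumours against control liver, median-ratio scaling put Trf at -0.049, and quantile normalisation put Alb at 0.028, Ttr at 0.088, Gc at 0.039, Ambp at 0.17 and Hpx at 0.051. Leaving out low-Gapdh libraries put Alb at 0.0076, Ambp at 0.021 and Hpx at 0.00026. In MycVD tumours against control liver, quantile normalisation put Trf at 0.079, Gc at 0.020 and Ambp at 0.13, and the Alb call was lost (-0.26). Without control ID128988, Trf, Gc and Ambp passed there (-0.41, -0.46 and -0.29), and without control ID128993 Ambp did (-0.25). Leaving out 1 ID in turn, Myc-off against control liver ran from -0.16 to 0.0076 for Alb, -0.0044 to 0.20 for Trf, -0.093 to 0.021 for Ambp and -0.072 to 0.019 for Hpx. The log2 ratio of Afp to Alb in Myc-off against Myc tumours was 0.0067 when each tumour counted as a sample, and 0.0020 without low-Gapdh libraries.

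In Myc tumours against control liver 62.9% of all calls were higher, but 52.0% with median-ratio scaling and 51.9% with quantile normalisation, and the median of all genes went from 0.28 to 0.05. With reads per kb the share was 81.4% there, 12.2% in Myc-off against Myc tumours (44.9% with eRPKM), 3.80% in MycVD against Myc tumours and 70.1% in MycVD tumours against control liver. In MycVD against Myc tumours the share was 38.8%, or 52.9%, 51.4% and, with depth as a term, 61.3%. Against control liver it was 61.3% in MycVD tumours, or 51.3% and 51.4%, and 64.1% in Myc-off tumours, or 49.3% and 48.5%. No paired analysis was possible because the labels give animal IDs and tumour letters, with no replicate numbers shared across groups. Azgp1 at its lowest rests on 4 reads.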
